A study of Mus musculus with 4 samples.

Results

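The insulin receptor signalling genes examined here were Insr, Igf1r, Irs1, Irs2, Akt2 and Foxo1, which are 6 of the 32285 genes counted in each library. They were taken by their symbols, with earlier results of these data known, and followed across islet cells grouped by the hormone that dominated each cell and across the 4 libraries. Islets came from male mice with the wild-type Pax4 gene (WT) or homozygous for a knock-in allele in which Pax4 carries histidine in place of an arginine (HH). The WT SCD and HH SCD mice were 12 weeks old and ate standard chow (SCD), and the WT HFD and HH HFD mice were 16 weeks old and had received a high-fat diet (HFD) for 4 weeks. Pax4 is a transcription factor of developing endocrine cells, and the allele is present in every cell of the HH mice. Each of the 4 groups was 1 droplet 3-prime single-cell library from the pooled, trypsin-dissociated islets of several mice, so a difference between genotypes or diets has no replicate check, group cannot be told apart from library, nor diet from age.

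Insulin and the insulin-like growth factors bind Insr and Igf1r, receptor tyrosine kinases that phosphorylate the adaptor proteins Irs1 and Irs2. The adaptors recruit phosphoinositide 3-kinase, whose lipid product activates AKT kinases such as Akt2, and AKT holds the transcription factor Foxo1 out of the nucleus. In beta cells, Irs2 is known for its part in beta cell mass and survival, its transcription is known to respond to cAMP signalling through Creb1, and FoxO factors are known to raise Irs2 and Insr transcription in other tissues such as liver. The 3-prime counts give transcript levels only. They do not separate the isoforms of Insr and carry nothing of phosphorylation.

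All 6 genes are protein-coding in the GENCODE M21 annotation of GRCm38. Irs2 lies at chr8:10984681-11008458 and Insr at chr8:3122061-3279617, both on the minus strand. Igf1r lies at chr7:67952827-68233668 and Akt2 at chr7:27591552-27640826, both on the plus strand. Irs1 lies at chr1:82233101-82291416 on the minus strand and Foxo1 at chr3:52268336-52353221 on the plus strand, where the transcript Gm38034 overlaps it on the same strand, so reads of those cannot be told apart with certainty. The promoters of the adaptor genes are shown because the results turn on the different behaviour of Irs1 and Irs2. They are the 150 bases before the RefSeq transcription start on GRCm38.p6, both on the minus strand, chr1:82291440-82291589 for Irs1 and chr8:11008930-11009079 for Irs2. Capitals mark matches on either strand to CACGTG (an E-box), TGTTTTG (the core of the insulin response element that FoxO factors bind) and TGACG (the short form of the cAMP response element).
Irs1 promoter: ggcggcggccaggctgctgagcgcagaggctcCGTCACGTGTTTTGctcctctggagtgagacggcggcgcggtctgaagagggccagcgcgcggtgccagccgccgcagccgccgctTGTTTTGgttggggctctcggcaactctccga
Irs2 promoter: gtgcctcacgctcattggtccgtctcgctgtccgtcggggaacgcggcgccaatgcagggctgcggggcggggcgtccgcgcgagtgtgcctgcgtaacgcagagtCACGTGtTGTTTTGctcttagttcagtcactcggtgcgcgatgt
In both promoters an E-box was followed closely by the insulin response core. In Irs1, the cAMP element began 118 bases and the E-box 115 bases before the start, and these overlap. The E-box also overlaps an insulin response core that began at 111 bases, and another such core began at 32 bases. In Irs2, the E-box began 44 bases and the insulin response core 37 bases before the start, and no cAMP element was in the window. The longest run shared by the 300-base RefSeq windows of both genes was GTCACGTGTT, 10 bases. Of 32851 RefSeq promoter windows of that length, 7.15% held the E-box, 6.28% the insulin response core and 20.8% the short cAMP element. The windows of Igf1r and Foxo1 held none of these motifs, and 2 of the 4 windows of Akt2 held the cAMP element. A further FoxO motif, GTAAACA, was in 3.65% of all windows and in none of the windows of these 5 members. Insr had no window in the table. A match describes the letters only.

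The libraries held 68011082 to 104810105 unique molecular identifiers (UMIs, the count of captured transcripts), and 12404 of 22218 barcodes were kept, between 37.7% (WT HFD) and 66.1% (HH SCD) per library. A cell was assigned to the hormone that made up at least 5% of its UMIs and at least 2 times the UMIs of any other hormone, which gave 8067 insulin cells (1141 to 2895 per library), 1568 glucagon cells (273 to 458), 1052 somatostatin cells (154 to 322) and 512 Ppy cells (69 to 190). Marker genes that the rule had not used stood with the first 3 names, on the scale defined in the next paragraph. The summed level of 5 insulin cell markers was 3627 to 5091 in insulin cells and at most 245 in the other groups. That of 4 glucagon cell markers was 1849 to 2217 in glucagon cells and reached 490 in Ppy cells. The sum of 3 somatostatin cell markers was 7201 to 9227 in somatostatin cells and reached 1574 in glucagon cells and 699 in Ppy cells. Of these 3, Rbp4 was at 6714 to 8776 in somatostatin cells and 1216 to 1572 in glucagon cells. Etv1 and Id4 did not set Ppy cells apart, since their sum was 530 to 585 there and 526 to 591 in glucagon cells, so these cells are named by their hormone only. Of the 4 ductal markers, Spp1 was at 670 to 951 in Ppy cells, while Krt19, Sox9 and Cftr were each at 0 to at most 3.05. Endothelial markers summed to 217 in the Ppy cells of HH SCD and at most 19.6 in the other libraries, and lymphocyte markers to 35.2 in WT HFD and 98.3 in HH HFD and at most 1.13 in SCD. Their part in the Ppy values was not tested. Pax4 had 0 UMIs in all barcodes of all 4 libraries, which leaves the genotype labels without a check in these counts. Any pair of libraries shared 6 to 11 barcodes, and at most 4 among analysed cells.

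To compare the hormone groups, UMIs were summed per group and library and scaled to 1000000 UMIs that were neither of hormone nor of mitochondrial genes (CPM). These levels are given below in the order WT SCD, HH SCD, WT HFD and HH HFD. Counts of the 16 sums were compared with insulin cells by edgeR's quasi-likelihood test with library as a block, over 11893 genes with Benjamini-Hochberg adjustment. The 4 libraries, which differ in genotype, diet and age, served as replicates of each difference. Of all genes, 60.4% passed an adjusted p of 0.05 between glucagon and insulin cells, 59.6% between somatostatin and insulin cells and 52.0% between Ppy and insulin cells, with 48.3%, 48.2% and 49.1% of those calls higher. Of the 6 members, 4 passed in each comparison, every one lower than in insulin cells, and they were Igf1r, Irs1, Akt2 and Foxo1 each time. With DESeq2, and in edgeR without the block, 3 passed in each, since Akt2 was lost in glucagon cells and Foxo1 in somatostatin and Ppy cells. These fits called 56.9%, 56.2% and 48.8% of all genes with DESeq2 and 51.2%, 51.3% and 45.2% without the block. Leaving out single libraries gave 3 to 5, 2 to 4 and 3 to 4 members, beside 52.9% to 57.2%, 52.2% to 56.6% and 44.5% to 46.8% of all genes. The share was close to the background of all genes in these comparisons. When levels were scaled to all UMIs, hormones included, edgeR's TMM normalization factors were left out as well. The median of all genes then moved by 0.59, 0.98 and 0.30 on the log2 scale, and 85.6%, 93.6% and 74.6% of the calls were higher. Leaving out the TMM factors alone moved it by -0.16, 0.04 and -0.09. Directions below are therefore relative to non-hormone transcripts.

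**Figure D1:**
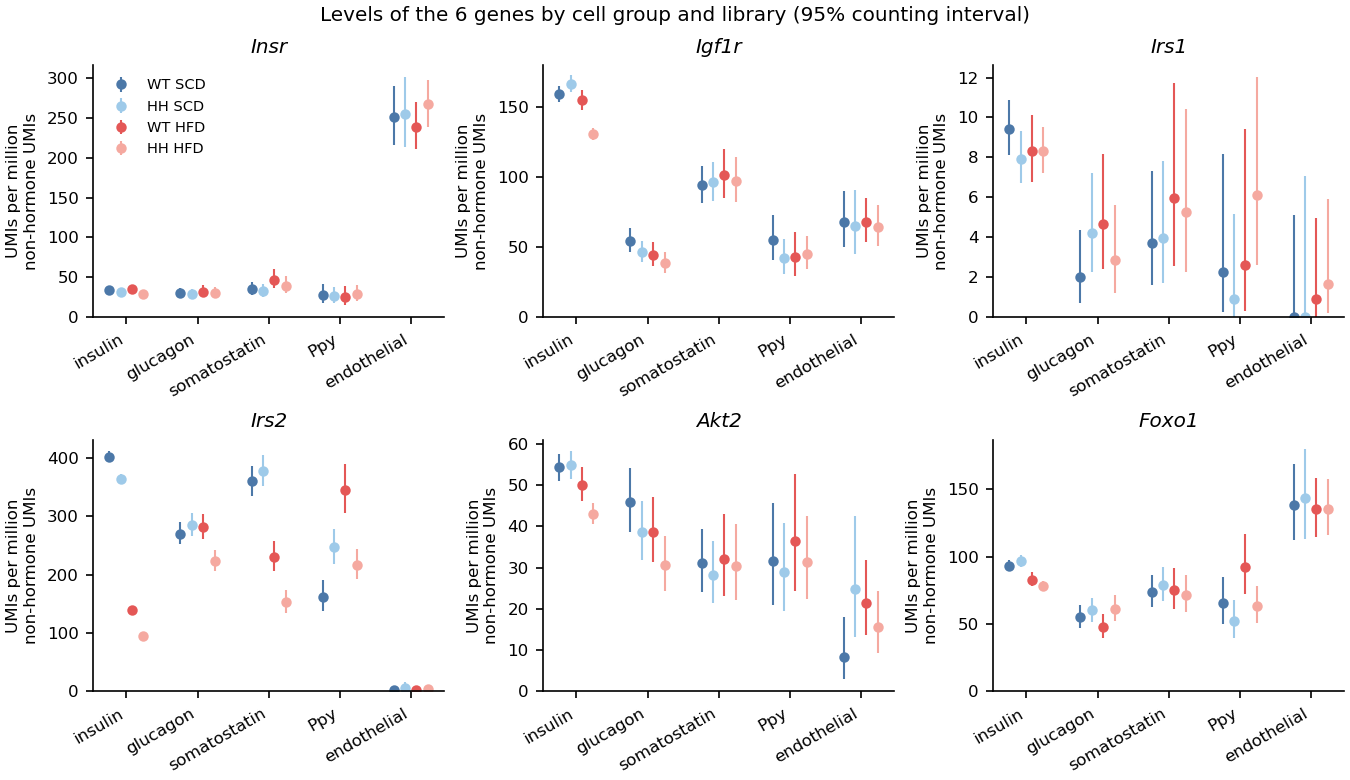
Level of each member (CPM of non-hormone, non-mitochondrial UMIs) in insulin, glucagon, somatostatin and Ppy cells, with 1 point per library. Igf1r and Irs1 sat highest in insulin cells in all 4 libraries, while Irs2 in insulin cells spread from 94.6 to 402.

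Igf1r, the receptor for insulin-like growth factors, was lower in every other hormone group than in insulin cells relative to non-hormone transcripts. Its level was 159, 166, 155 and 130 CPM in insulin cells, 54.2, 46.3, 44.5 and 38.7 in glucagon cells, 94.0, 96.0, 101 and 97.1 in somatostatin cells and 55.3, 41.8, 43.0 and 45.0 in Ppy cells. No library of another group reached the lowest insulin value. By edgeR with Benjamini-Hochberg adjustment, Igf1r was 2.96-fold lower in glucagon cells (log2 -1.57, SE 0.08, adjusted p = 9.8e-13), 1.62-fold lower in somatostatin cells (-0.70, SE 0.08, adjusted p = 1.7e-07) and 3.08-fold lower in Ppy cells (-1.62, SE 0.10, adjusted p = 3.0e-11). The somatostatin difference turned to 0.28 with scaling to all UMIs, which was -0.69 relative to the median of all genes in that scaling. Glucagon and Ppy cells were the lowest groups, with means of 45.9 ± 6.39 and 46.3 ± 6.13 (SD, n = 4), closer to each other than their spread.

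Insr, the insulin receptor itself, did not differ from insulin cells past the threshold in any hormone group. It was 34.6, 31.2, 35.7 and 29.5 CPM in insulin cells, 29.9, 28.5, 32.0 and 30.5 in glucagon cells, 35.7, 32.7, 46.9 and 39.6 in somatostatin cells and 28.2, 26.0, 24.8 and 29.0 in Ppy cells. Insulin cells overlapped with glucagon and somatostatin cells, and Ppy cells lay just under the lowest insulin value. Within libraries, somatostatin cells were above insulin cells in 4 of 4 and Ppy cells below in 4 of 4, and somatostatin and Ppy cells were not compared with each other. The edgeR log2 differences were 0.05 (SE 0.09, adjusted p = 0.65) in glucagon cells, 0.18 (SE 0.10, adjusted p = 0.11) in somatostatin cells and -0.17 (SE 0.12, adjusted p = 0.33) in Ppy cells. The glucagon value was of either sign across settings, and the signs in glucagon and Ppy cells were both positive with scaling to all UMIs (0.63 and 0.13).

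Irs1, the adaptor with few UMIs here, was highest in insulin cells among the 4 hormone groups. Stromal cells, outside those groups, held 7.96 to 25.3 CPM in 3 libraries, from 2 to 9 UMIs each. It had 645 UMIs in insulin cells and 39, 32 and 13 in glucagon, somatostatin and Ppy cells. The levels were 9.44, 7.94, 8.33 and 8.31 CPM in insulin cells, 1.99, 4.21, 4.69 and 2.84 in glucagon cells, 3.71, 3.96, 5.95 and 5.29 in somatostatin cells and 2.26, 0.93, 2.61 and 6.10 in Ppy cells, so none of these 3 reached the insulin range. Irs1 was lower by edgeR with Benjamini-Hochberg adjustment in glucagon cells (log2 -1.16, SE 0.27, adjusted p = 0.00084), somatostatin cells (-0.93, SE 0.28, adjusted p = 0.0082) and Ppy cells (-1.33, SE 0.38, adjusted p = 0.0060). Of the 13 UMIs in Ppy cells, 8 were from HH HFD, and without that library the Ppy value was -2.11. The somatostatin call was lost without the WT SCD library (-0.78, adjusted p = 0.059), and with scaling to all UMIs its value was 0.04, or -0.92 relative to the median of all genes.

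Akt2, an AKT kinase prominent in insulin-responsive tissues, was lower in somatostatin and Ppy cells than in insulin cells. It stood at 54.3, 54.8, 50.1 and 43.0 CPM in insulin cells, 45.9, 38.5, 38.7 and 30.5 in glucagon cells, 31.0, 28.2, 32.0 and 30.4 in somatostatin cells and 31.6, 28.8, 36.5 and 31.3 in Ppy cells. The somatostatin and Ppy ranges lay below all insulin values, and the glucagon range overlapped with them. The edgeR log2 differences were -0.78 (SE 0.10, adjusted p = 1.2e-06) in somatostatin cells, -0.57 (SE 0.12, adjusted p = 0.00041) in Ppy cells and -0.23 (SE 0.09, adjusted p = 0.025) in glucagon cells. The glucagon call was lost without HH SCD (adjusted p = 0.11), without WT HFD (0.059), without HH HFD (0.10) and with DESeq2 (0.074). With scaling to all UMIs, the glucagon and somatostatin values were 0.35 and 0.19, or -0.23 and -0.78 relative to the median of all genes.

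Foxo1, the forkhead transcription factor at the end of this chain, was clear of the insulin range in glucagon cells alone among the 3 groups. Its level was 93.3, 96.6, 82.9 and 78.4 CPM in insulin cells, 55.2, 60.2, 48.0 and 61.4 in glucagon cells, 73.7, 79.2, 75.1 and 71.4 in somatostatin cells and 65.4, 52.1, 92.6 and 63.3 in Ppy cells. The somatostatin and Ppy ranges reached into the insulin range. By edgeR the log2 difference was -0.48 (SE 0.10, adjusted p = 0.00034) in glucagon cells, -0.27 (SE 0.10, adjusted p = 0.029) in somatostatin cells and -0.30 (SE 0.12, adjusted p = 0.042) in Ppy cells. The somatostatin call was lost without WT SCD (adjusted p = 0.12) or HH SCD (0.067), and the Ppy call without WT SCD (0.13), HH SCD (0.35, log2 -0.16) or HH HFD (0.073). Without WT HFD the Ppy value was -0.48. With DESeq2 neither call passed (adjusted p = 0.073 and 0.057). With scaling to all UMIs the 3 values were 0.11, 0.70 and 0.00, or -0.47, -0.26 and -0.29 relative to the median of all genes.

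**Figure D2:**
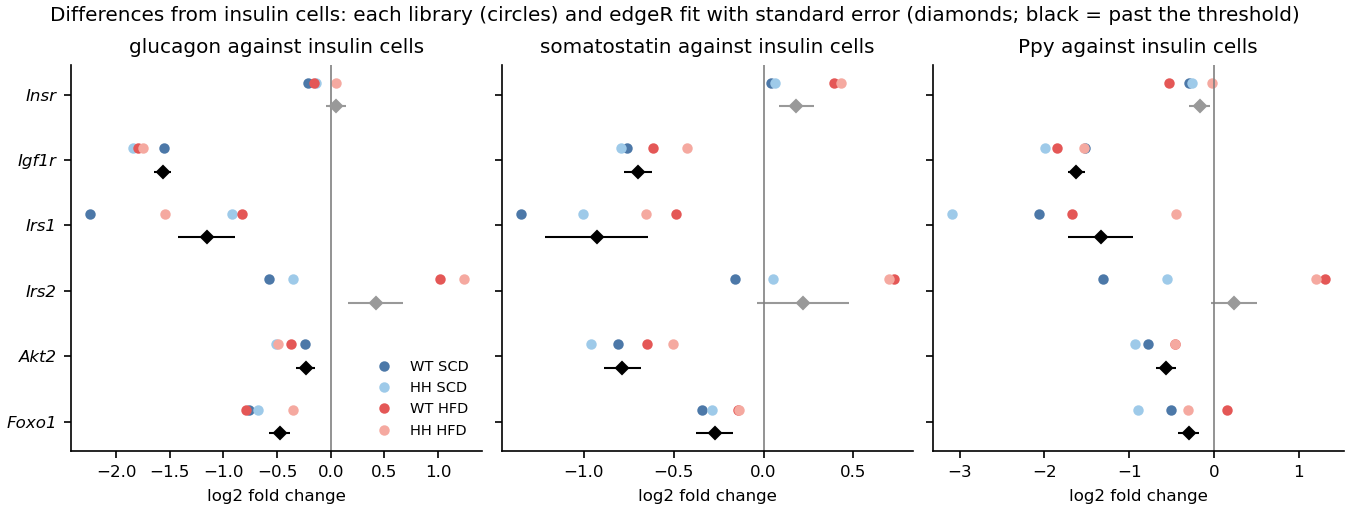
Log2 difference of each member from insulin cells in glucagon, somatostatin and Ppy cells, for each library (circles) and from the edgeR fit (diamonds with 1 SE, black where the adjusted p was under 0.05). The SCD and HFD circles of Irs2 lie apart, from -0.57 to 1.24 in glucagon cells, while those of Igf1r lie together.

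Irs2, the adaptor best known in beta cells, followed diet in insulin cells and not in the same way in the other hormone groups. Its level in insulin cells was 402 and 364 CPM in WT SCD and HH SCD and 139 and 94.6 in WT HFD and HH HFD, from 8011, 6743, 1690 and 2380 UMIs. In glucagon cells it was 270, 285, 282 and 224, and in somatostatin cells 360, 378, 231 and 153. In Ppy cells it was 162, 247, 345 and 217. The SCD and HFD libraries did not overlap in insulin or somatostatin cells, and they did in glucagon and Ppy cells. Averaged over the libraries, Irs2 did not differ between groups past the threshold, with edgeR log2 values against insulin cells of 0.42 (SE 0.25, adjusted p = 0.16), 0.22 (SE 0.26, adjusted p = 0.48) and 0.24 (SE 0.27, adjusted p = 0.50) in glucagon, somatostatin and Ppy cells. That average covered opposite signs within libraries. Against insulin cells of the same library, the log2 level in glucagon cells was -0.57 in WT SCD and -0.35 in HH SCD but 1.02 in WT HFD and 1.24 in HH HFD, and in Ppy cells it was -1.31 in WT SCD and -0.56 in HH SCD and above 0 in both HFD libraries (1.31 in WT). The glucagon difference passed without the WT SCD library (0.74, adjusted p = 0.010), as did the Ppy difference (0.68, adjusted p = 0.027).

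The difference in the diet effect was tested by an edgeR fit with a term for HFD in each hormone group and library as a block, in which the WT and HH libraries of a diet served as replicates. This test was chosen after the values of Irs2 had been seen. It compares hormone groups within a library, so a factor that acts on all cells of a library alike is taken up by the block. A factor of a library that acts on hormone groups differently is not taken up. Over all genes, 3.17% passed for glucagon against insulin cells, 0.917% for somatostatin and 2.19% for Ppy, and 1 of the 6 members, Irs2, passed in each. The effect of HFD on Irs2, relative to that in insulin cells, was higher by 1.53 on the log2 scale in glucagon cells (SE 0.15, adjusted p = 4.1e-07), by 0.70 in somatostatin cells (SE 0.16, adjusted p = 0.025) and by 2.05 in Ppy cells (SE 0.17, adjusted p = 3.8e-08). The somatostatin value was lost without WT SCD (0.59, adjusted p = 0.23) and without WT HFD (0.63, adjusted p = 0.055). The other 5 members did not pass in any group, and the lowest of their adjusted p-values was 0.28, for Foxo1 in Ppy cells (0.50). Immediate early and heat shock genes moved between the same sums. The summed level of 7 of them (Fos, Fosb, Jun, Junb, Egr1, Atf3 and Ier2, a list added after the data were seen) was lower with HFD in insulin cells, by 0.45 in WT and 1.26 in HH on the log2 scale, and higher in glucagon cells (1.14 and 0.86), somatostatin cells (1.33 and 0.36) and Ppy cells (1.73 and 1.51). The summed level of 5 heat shock genes (Hspa1a, Hspa1b, Dnajb1, Hsp90aa1 and Hsph1, also added then) was at 0.09 in WT and -0.17 in HH in insulin cells, where its members went different ways, and higher with HFD in glucagon cells (0.77 and 0.47), somatostatin cells (0.71 and 0.27) and Ppy cells (0.82 and 0.28). In HH insulin cells Hspa1a was at -1.62, Hspa1b at -1.76 and Dnajb1 at -1.53 with HFD, while Hsp90aa1 was at 0.55 and Hsph1 at 0.03. The part of both lists in the Irs2 difference was not tested.

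**Figure D3:**
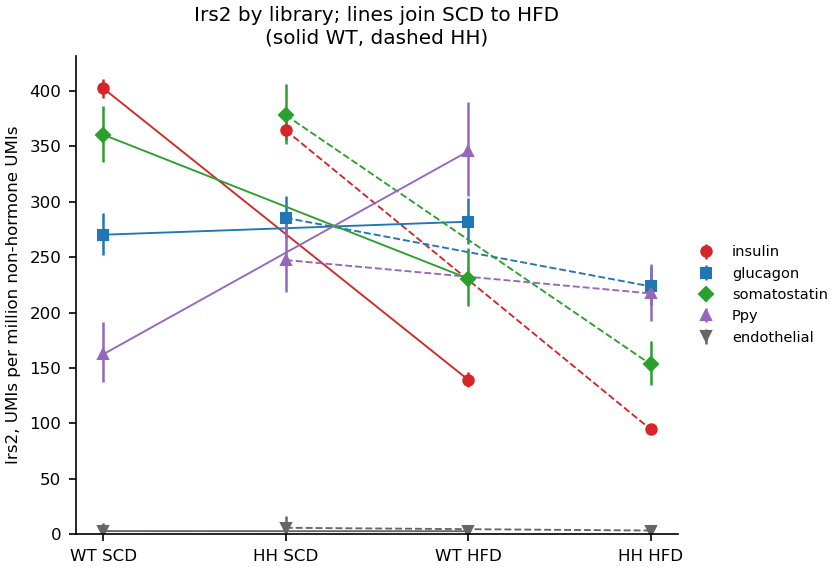
Irs2 level (CPM of non-hormone, non-mitochondrial UMIs) in each hormone group and library, with 95% intervals of counting error. In insulin cells both HFD libraries (139 and 94.6) lie below both SCD libraries (402 and 364), and in glucagon cells all 4 lie between 224 and 285.

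In insulin cells the members were then compared between diets within each genotype, as ratios with 95% intervals from the exact binomial split of the counts, which cover counting error only. A member or gene was counted as past the fold at a difference of 1.2-fold, among 7186 genes at 20 CPM or more, which left out Irs1. In WT, 27.7% of those genes were past it and 1 of 5 members was, Irs2, at 2.89-fold lower with HFD (log2 -1.53, interval -1.61 to -1.45). In HH, 34.0% of genes and 4 of 5 members were past it. Irs2 was 3.85-fold lower with HFD in HH (log2 -1.94, interval -2.01 to -1.88), and Igf1r (-0.35, interval -0.42 to -0.28), Akt2 (-0.35, interval -0.47 to -0.22) and Foxo1 (-0.30, interval -0.39 to -0.21) were lower too. In WT those 3 were at -0.04, -0.11 and -0.17, and the difference between genotypes in the diet ratio was not tested. From SCD to HFD, the summed endothelial markers in insulin cells went from 83.6 to 26.8 CPM in WT and from 28.2 to 72.6 in HH. Stromal markers went from 40.1 to 17.9 in WT and from 12.4 to 58.1 in HH. Ductal markers went from 25.3 to 12.2 in WT and from 8.43 to 62.4 in HH. The insulin cell markers went from 4602 to 5091 in WT and from 4486 to 3627 in HH. The part of all these markers in the ratios was not tested. Insr was level between diets in both genotypes, at 0.05 (interval -0.13 to 0.22) and -0.08 (interval -0.24 to 0.08). Irs2 lay in the lowest 0.50% of all measured genes in WT and the lowest 0.35% in HH, while the median of all genes was 0.00 and -0.07. In the other hormone groups the HFD ratio of Irs2 was 0.06 in WT and -0.35 in HH for glucagon cells, -0.64 and -1.30 for somatostatin cells, and 1.09 and -0.19 for Ppy cells.

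Whether the knock-in allele was accompanied by a difference in these genes was addressed within each diet. In SCD, 4.33% of genes were past 1.2-fold between HH and WT insulin cells, and 0 of 5 members were. Irs2 was at -0.14 on the log2 scale (interval -0.19 to -0.10), Insr at -0.15 (interval -0.31 to 0.01), Igf1r at 0.07, Foxo1 at 0.05 and Akt2 at 0.01. In HFD, 24.9% of genes were past 1.2-fold, and 2 of 5 members were, both lower in HH. Irs2 was 1.47-fold lower (log2 -0.56, interval -0.65 to -0.47) and Insr was at -0.28 (interval -0.45 to -0.10). Igf1r at -0.25 (interval -0.33 to -0.16), Akt2 at -0.22 (interval -0.36 to -0.07) and Foxo1 at -0.08 (interval -0.19 to 0.03) were short of the fold, and the median of all genes was -0.11. With TMM scaling, with a looser cell filter, with doublets kept or with each cell weighted equally, 1 member was past the fold in place of 2, beside 18.2%, 23.1%, 24.7% and 22.0% of all genes in that order. Irs1, below the minimum, had intervals that included 0 in both diets. The immediate early gene sum was higher by 0.14 in HH in SCD and lower by 0.67 in HFD. The heat shock sum was at -0.22 in SCD and -0.48 in HFD, with Hspa1a at -1.73, Hspa1b at -1.74, Dnajb1 at -1.52, Hsph1 at -0.45 and Hsp90aa1 at 0.03 in HFD. In the same HFD sums, from WT to HH, the summed level of endothelial markers was 26.8 and 72.6 CPM, of stromal markers 17.9 and 58.1, of ductal markers 12.2 and 62.4, and of the 5 insulin cell markers 5091 and 3627. The part of all these genes in the ratios was not tested. In HFD, Irs2 was lower in HH in the other hormone groups as well. It was at -0.33 in glucagon cells (interval -0.49 to -0.18), -0.59 in somatostatin cells (interval -0.84 to -0.34) and -0.67 in Ppy cells (interval -0.92 to -0.42). In that order, the immediate early sum was at 0.06, -0.50 and 0.14 there, and the heat shock sum at -0.17, -0.32 and -0.21. Their part was not tested.

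**Figure D4:**
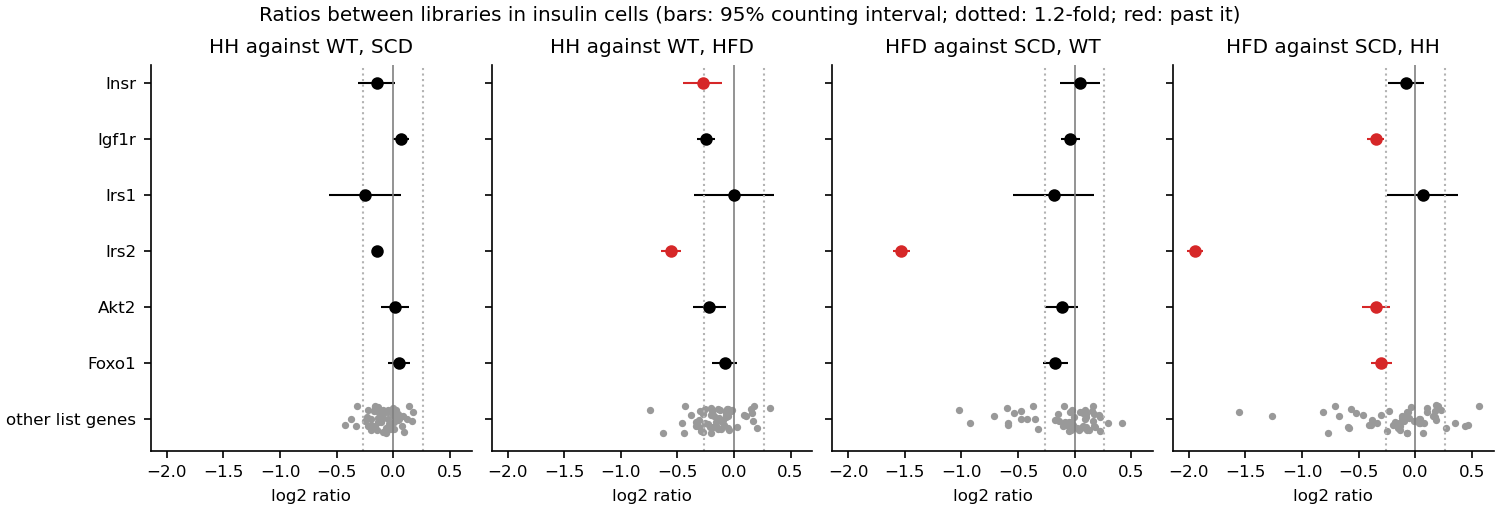
Log2 ratios of the members in insulin cells between genotypes and between diets, with 95% intervals of counting error. Irs2 stands at -1.53 (WT) and -1.94 (HH) between diets, and the other members lie between -0.35 and 0.07.

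How Irs2 was spread over insulin cells was described after thinning each cell to 10000 UMIs. The mean number of Irs2 UMIs per cell was 1.49, 1.30, 0.52 and 0.36, in the order used above, and 28.1%, 33.1%, 62.4% and 72.4% of the cells had none. The whole distribution lay lower with HFD, and the 1% of cells with most Irs2 held 3.71% to 6.93% of its UMIs. The variance over the mean, which is near 1 for counting noise alone, was 1.40, 1.34, 1.27 and 1.21 for Irs2, 1.15 to 1.21 for Igf1r, 1.05 to 1.13 for Insr and 0.96 to 1.09 for Irs1, Akt2 and Foxo1. At 3000 UMIs the mean for Irs2 was 1.07 in place of 1.31. This ratio rises with the mean level, so it does not rank genes or libraries by their relative spread between cells. Insulin cells with and without a UMI of Mafa, a transcription factor of mature beta cells, held 1.51 and 1.32 Irs2 UMIs per cell in WT SCD and 1.31 and 1.23 in HH SCD. Those of WT HFD held 0.50 and 0.63 and those of HH HFD 0.37 and 0.32. A cell without a Mafa UMI at this depth may still express the gene, so the split does not mark separate kinds of cell.

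**Figure D5:**
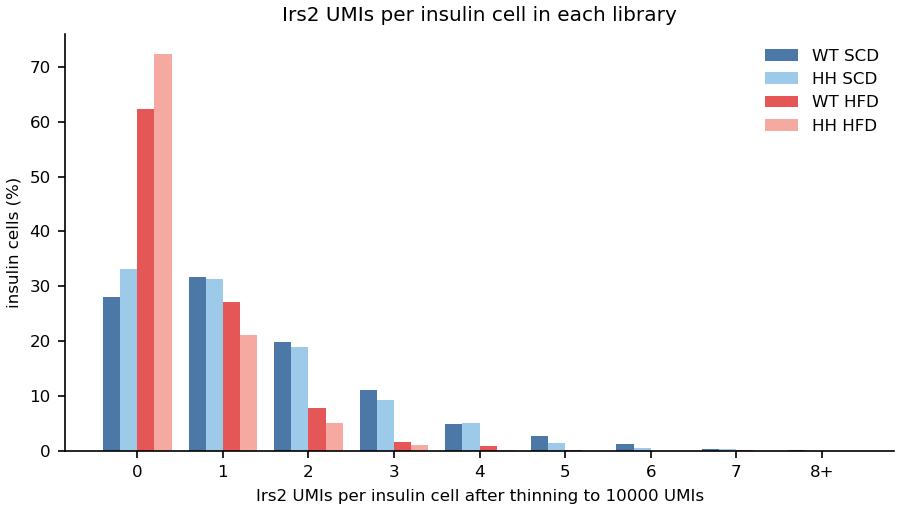
Share of insulin cells (%) by number of Irs2 UMIs after thinning each cell to 10000 UMIs, with 1 bar per library. Cells with no Irs2 UMI make up 28.1% and 33.1% in the SCD libraries and 62.4% and 72.4% in the HFD libraries.

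Endothelial cells (no dominant hormone and at least 3 of 6 endothelial markers detected, with 112, 85, 145 and 192 cells) gave a view of the same genes in a cell type outside the endocrine lineage. Insr was at 253 ± 11.7 CPM there (SD, n = 4), 7.72-fold above insulin cells, and Foxo1 at 138 ± 3.86, which was 1.57-fold above. Irs2 was at 2.77, 5.74, 2.68 and 3.29, from 12 UMIs in all, beside 402, 364, 139 and 94.6 in insulin cells. Igf1r (66.3), Akt2 (17.6) and Irs1 (0.63) were lower than in insulin cells. No test was made of this contrast. At 3000 UMIs per cell, hormones included, 34.4%, 30.5%, 14.3% and 9.74% of insulin cells had an Irs2 UMI. Of endothelial cells, which serve as the background of free RNA, 0%, 1.18%, 1.38% and 1.56% had one. Before thinning the shares in insulin cells were 92.5%, 90.6%, 66.9% and 49.3%, at median depths of 26292, 26172, 29798 and 24148 UMIs against 5768 to 7079 in endothelial cells. The median UMIs of neither hormone nor mitochondrial genes were 8468 to 10581 in insulin cells and 5503 to 6776 in endothelial cells. A smaller part of the 3000 UMIs was thus left for other genes in insulin cells. The upper exact binomial limits of the endothelial shares were 3.24%, 6.38%, 4.89% and 4.50%, and before thinning 1.79%, 3.53%, 2.07% and 1.56% of endothelial cells had an Irs2 UMI.

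The wider pathway was described from 9 lists of 89 genes, of which 81 were in the edgeR fit. Past the threshold were 55 in glucagon cells (21 higher, 34 lower than in insulin cells), 53 in somatostatin cells (16 higher, 37 lower) and 45 in Ppy cells (14 higher, 31 lower). These were 67.9%, 65.4% and 55.6% of the 81, near the 60.4%, 59.6% and 52.0% of all genes, and 42.0%, 45.7% and 38.3% of the 81 were lower against 31.2%, 30.9% and 26.5% of all genes. The median log2 difference over the lists was -0.16, -0.20 and -0.21, beside -0.01, -0.02 and -0.01 over all genes. Of 7 measured genes of phosphoinositide 3-kinase and its effector kinase Pdpk1, 5, 6 and 5 were lower and 0 were higher, beside 31.2%, 30.9% and 26.5% of all genes lower and 29.2%, 28.7% and 25.6% higher. Among the lower ones was the regulatory subunit Pik3r1 (-1.37 in glucagon and -1.63 in Ppy cells). Insrr, an insulin receptor-related receptor, was lower in each group (-2.92, -2.07 and -3.95), as were Tbc1d4, an AKT substrate in glucose transporter traffic (-2.52, -1.91 and -2.01), and the translation repressor Eif4ebp1 (-1.95, -2.51 and -1.65). Higher in each were the lipoprotein receptor Lrp1 (3.89, 3.91 and 3.44) and the adaptor Gab1 (2.80, 2.82 and 2.35). Grb10, an adaptor that restrains the receptor, was 3.22 higher in glucagon cells, at 156 to 178 CPM against 17.2 to 21.8 in insulin cells. In the fit of diet by hormone group, 4, 3 and 3 of the 81 passed in glucagon, somatostatin and Ppy cells, or 4.94%, 3.70% and 3.70% beside 3.17%, 0.917% and 2.19% of all genes. Beside Irs2 these were Klf6, a zinc finger factor (0.76, 0.85 and 1.91), Socs3 in glucagon cells (2.01), Fbxo32 in glucagon cells (1.24), and Socs2 in somatostatin and Ppy cells (1.53 and 1.97), where Socs2 and Socs3 are feedback inhibitors of cytokine and insulin signalling.

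Between genotypes in insulin cells, 60 of the list genes were measured at 20 CPM or more. In SCD, 4 were past 1.2-fold (6.67% beside 4.33% of all genes), all lower in HH, and were Igfbp7 (-0.43), the growth factor clearance receptor Igf2r (-0.38), Foxo3 (-0.33) and Socs2 (-0.32). Igfbp7 was at 8087 to 10340 CPM in endothelial cells, whose markers summed to 83.6 in WT SCD and 28.2 in HH SCD insulin cells, and their part in the Igfbp7 ratio was not tested. In HFD, 18 of the 60 were past it (beside 24.9% of all genes), 17 of them lower in HH, and over all genes 1417 of the 1788 past it were lower as well. The lower ones included Socs2 (-0.74), Klf6 (-0.62), Trib1, a pseudokinase (-0.46), Insrr (-0.44), the adaptor Shc1 (-0.38), Pik3r1 (-0.34) and Akt1 (-0.33), and the higher one was Eif4ebp1 (0.32). The median over the lists was -0.17, against -0.11 over all genes. Between diets, 16 were past the fold in WT (26.7% beside 27.7% of all genes) and 25 in HH (41.7% beside 34.0%). Trib1 was lower with HFD at -1.02 in WT and -1.56 in HH, and its levels in glucagon cells were 205 and 206 CPM in SCD and 87.9 and 74.9 in HFD.

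The genes whose log2 levels ran most like each member over the 16 sums, of 7150 genes, were named as a description. The sums share libraries and hormone groups, so no p is given. Igf1r ran with Adra2a (Pearson r = 0.99), an adrenergic receptor, Ppp1r1a (0.98) and Nt5c3 (0.98). Irs2 ran with Cbx8 (0.88), Tnfaip3 (0.85) and Fam118a (0.81), Insr with Ccdc12 (0.90), Cul2 (0.88) and Prkar1b (0.88), and Irs1 with Bin1, Mrs2 and Plekha6 (0.89 each). Akt2 ran with Fam129b (0.94), 9330182L06Rik (0.93) and Rbm15b (0.92), and Foxo1 with Acap2 (0.91), Asah2 (0.90) and Stx18 (0.89). Among the members, Igf1r ran with Irs1 (0.75) and Foxo1 (0.73), and Irs2 with none of them (-0.16 to 0.13).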

How the data were processed

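Single cells of islets from 4 groups of mice were measured in 1 library each. Per the labels, the authors used the Chromium 3′ v3.1 kit and Cell Ranger 6.0 with mm10, and deposited raw UMI counts, as filtered matrices with genes in rows and barcodes in columns. The annotation release is not given in the sources used here. Cells with under 10% mitochondrial UMIs, 3000 to 50000 UMIs and 2000 to 5000 genes were kept, and 348 predicted doublets were removed with Scrublet in scanpy 1.11.5 at a rate of 0.8% per 1000 cells. No ambient correction was made. A second hormone could reach at most 0.5 of the first. Counts were summed per hormone group and library and compared with edgeR 4.0.16 in R 4.3.3 (TMM factors without hormone and mitochondrial genes), with DESeq2 1.42.0 as an alternative. With 1 library per group, genotypes and diets were compared as ratios with no test, except that the difference of the diet effect between hormone groups was tested with the WT and HH libraries of a diet as replicates. All intervals are exact 95% intervals of counting error. The samples are pools of mice, 1 per genotype and diet. The p-values between hormone groups therefore measure how a difference varied over genotype, diet, age and pool together. Those of the diet by hormone group fit measure how it varied over genotype and pool within a diet.

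The members and gene lists were chosen with earlier results of these data known. Named were the 6 members, up to 3 list genes per list and contrast by size, up to 10 list genes per diet past 1.2-fold between genotypes, and the 3 most similar genes per member. The same rule was applied to the diets, and the diet by hormone group fit and the immediate early and heat shock lists were added, after the values were seen. The steps were tested on simulated data. Sequences and promoter windows came from RefSeq for 5 members. Python 3.11.15 was used. Bulk samples of the study were not used here.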

Additional observations from a re-analysis of the deposited data

Results flagged for a closer look

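The response of Irs2 to HFD differed between hormone groups in an edgeR quasi-likelihood test of the difference itself with Benjamini-Hochberg adjustment. The test was chosen after the Irs2 values had been seen, so it describes that observation and is no independent evidence of it. Relative to insulin cells the HFD effect was higher by 1.53 in glucagon cells, 0.70 in somatostatin cells and 2.05 in Ppy cells on the log2 scale, with adjusted p of 4.1e-07, 0.025 and 3.8e-08. The somatostatin difference was lost without WT SCD (0.59, adjusted p = 0.23) and without WT HFD (0.63, adjusted p = 0.055). The summed immediate early genes also had lower HFD ratios in insulin cells (-0.45 in WT and -1.26 in HH) than in the other groups (0.36 to 1.73), and their part was not tested. In both genotypes the HFD ratio was higher in each of these groups than in insulin cells.

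In Ppy cells, Irs2 was higher in HH than in WT in SCD (log2 0.61, interval 0.31 to 0.91, from 144 and 266 UMIs) and lower in HFD (-0.67, interval -0.92 to -0.42, from 265 and 285 UMIs). The signs are opposite, with 1 library each and 69 to 190 Ppy cells per library, and the difference was not tested. In the same Ppy cells, endothelial markers summed to 15.8 CPM in WT SCD and 217 in HH SCD, and lymphocyte markers to 35.2 in WT HFD and 98.3 in HH HFD, and their part was not tested. With 1 library per genotype and diet, no group was large enough to look for a sample standing apart from the others.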

How the results depend on the processing

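Of 133 comparisons of summary results with an alternative, 121 were classed as unchanged. For single members 420 of 467 were, while 23 lost and 7 gained the call. Unchanged meant the same direction and side of the threshold for the edgeR tests only. For counts of genes it meant a number near the main one, and for ratios a value inside the main counting interval. A variance over the mean had to stay within its spread. A ratio classed as unchanged could therefore have lost the fold. Scaling to all UMIs reversed Akt2 (0.35) and Foxo1 (0.11) in glucagon cells, Igf1r (0.28), Irs1 (0.039), Akt2 (0.19) and Foxo1 (0.70) in somatostatin cells, and Insr (0.13) and Foxo1 (0.0012) in Ppy cells, and left 2 members past the threshold in Ppy cells. The median of all genes moved by 0.59, 0.98 and 0.30 in that setting, which also left out TMM. Without TMM alone it moved by -0.16 in glucagon cells, where 33.4% of calls were higher in place of 48.3%. Without a filter it moved by -0.14, -0.14 and -0.20. Insr in glucagon cells was -0.11 without TMM, -0.016 without a filter and -0.0056 with a hormone share of 2%. Irs2 in Ppy cells ran from -0.14 (without WT HFD) over -0.10 (without HH HFD) to 0.68 (without WT SCD). For these the cause was not tested.

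Leaving out each library gave 3 to 5, 2 to 4 and 3 to 4 members past the threshold in glucagon, somatostatin and Ppy cells (2 in somatostatin cells without WT SCD), 48 to 54, 43 to 53 and 43 to 46 list genes, beside 52.9% to 57.2%, 52.2% to 56.6% and 44.5% to 46.8% of all genes (60.4%, 59.6% and 52.0% with all libraries), and HFD differences for Irs2 of 1.42 to 1.63, 0.59 to 0.79 and 1.72 to 2.45. With no replicate block for library, edgeR called 6093, 6100 and 5373 genes in place of 7180, 7088 and 6190, and adjusted p-values of 0.090 for Akt2 in glucagon cells and 0.066 and 0.069 for Foxo1 in somatostatin and Ppy cells. DESeq2 gave 0.073 and 0.057 for that Foxo1 pair. The only call gained for Irs2 without dropping a library or adding hormone UMIs was in glucagon cells without a filter (adjusted p = 0.00012).

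Between HH and WT, list genes past the fold were 0 (SCD) and 2 (HFD) at 1.5-fold, beside 0.32% and 2.32% of all genes, and 8 in SCD with all UMIs, where all genes past it rose from 4.33% to 7.68%. In HFD, 1 member was past the fold with TMM factors, a looser cell filter, doublets kept or equal weights, beside 18.2%, 23.1%, 24.7% and 22.0% of all genes. The variance over the mean of Irs2 was 1.07 at 3000 UMIs. With 1 pool of mice per group, counting intervals do not hold the spread between animals, and the 13 to 39 Irs1 UMIs outside insulin cells limit its values.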
